A study of Zea mays with 8 samples.

Results

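The 5 genes described here are 3 beta-tubulin genes of maize, tub6 (GRMZM2G071790), tub5 (GRMZM2G133802) and tub4 (GRMZM2G066191), and 2 genes with a kinesin symbol, kin11 (GRMZM2G436981) and kin1 (GRMZM2G158394). They were taken by gene ID from 28667 genes in the 2 expression tables. They were chosen by their measured drought changes in these same libraries, so their levels and changes are given as a description, with no test. Polyadenylated RNA was sequenced from greenhouse plants of the inbred line B73, 24 hours after hand pollination. The groups were droughted ovaries, well-watered ovaries, droughted leaf base and well-watered leaf base, with 2 libraries in each group and 8 in all. Irrigation had been withheld for 2 to 3 days before pollination in the drought groups. The leaf base is the basal meristem of the 3 youngest leaves, and the ovary samples also go by the names reproductive tissue and cob. The labels call the libraries biological replicates without saying which plants gave them, so a p-value below reflects only how far such libraries scatter, which may be technical.

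Microtubules are hollow polymers of alpha- and beta-tubulin dimers, and gamma-tubulin nucleates them. In plant cells they build the preprophase band, the spindle and the phragmoplast of dividing cells, and the cortical arrays that guide cellulose synthases in growing walls. Kinesins are ATP-driven motors that walk along microtubules or change their ends, in spindle assembly, cell plate formation and transport. Each tubulin class is encoded by several genes, and such gene copies can differ in where and when they are expressed.

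Expression is given as FPKM, a fragment count divided by gene length and by library size, so levels of different genes can be set side by side. Without the 2 highest genes of each library the FPKM summed to between 651936 and 733453 in the ovary and between 760824 and 823311 in the leaf base. With them ovary control 2 summed to 9212840 FPKM. Sequencing depth and counting error are unknown, because only FPKM could be used. The label of the ovary fits its markers: 7 floral organ identity genes of the MADS-box family summed to between 572 and 891 FPKM in the ovary libraries, and the only 1 of them listed in the leaf table stayed between 0.238 and 0.447 FPKM. The leaf base libraries had 11 listed photosynthesis genes that summed to between 13480 and 18280 FPKM. There kn1, which marks shoot meristem cells, and 3 others of 13 KNOX and leaf patterning genes were not listed. The other 9 summed to between 72.2 and 88.1 FPKM, far below the sum of the photosynthesis genes. These sums compare different classes of genes, and the share of meristem cells in these libraries was not tested.

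Of the 4 members listed in the ovary, tub6 had the highest level in well-watered ovaries and the largest drought difference. Its transcripts stood at 23.8 and 18.5 FPKM in droughted ovaries, against 444 and 551 FPKM in well-watered ovaries. The groups did not overlap, and both droughted libraries were also below every leaf library. The mean was 21.2 ± 3.74 FPKM in droughted ovaries and 497 ± 75.5 FPKM in well-watered ovaries (SD, n = 2 each), a level 23.5-fold higher in well-watered ovaries and a log2 change of -4.49 on the log2(FPKM + 1) scale.

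The second beta-tubulin gene, tub5, which the reference also names tub8, stood at 32.6 and 31.3 FPKM in droughted ovaries, against 385 and 417 FPKM in well-watered ovaries. Its replicates lay closest together of the 4 members listed in the ovary, with a within-group SD of 0.06 around a log2 change of -3.61. The third, tub4, had 8.85 and 17.6 FPKM in droughted ovaries, against 167 and 233 FPKM in well-watered ovaries. Its 2 droughted libraries differed most, with a within-group SD of 0.52 around a log2 change of -3.87, and no droughted library came near a well-watered one. In well-watered ovaries the order of levels was tub6, tub5, tub4, though the nearest libraries of tub6 and tub5 were closer to each other than the 2 libraries of tub6 were. In droughted ovaries tub5 was above tub6. Both tub6 libraries were above both tub4 libraries there, but the nearest came within 1 FPKM, closer than the 2 libraries of either gene were.

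The kinesin gene kin11, also named krp11, had lower levels than the 3 tubulin members in every library. It stood at 0.474 and 0.730 FPKM in droughted ovaries, against 9.29 and 7.73 FPKM in well-watered ovaries. That is a log2 change of -2.57 with a within-group SD of 0.17, and the mean was 14.1-fold higher in well-watered ovaries. Levels this low weigh on the log2(FPKM + 1) scale: with 0.1 FPKM added in place of 1 the log2 change was -3.64. Leaf base libraries held hardly any kin11, at 0.105 and 0.307 FPKM under drought and at 0.285 and 0 FPKM with water.

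**Figure D1:**
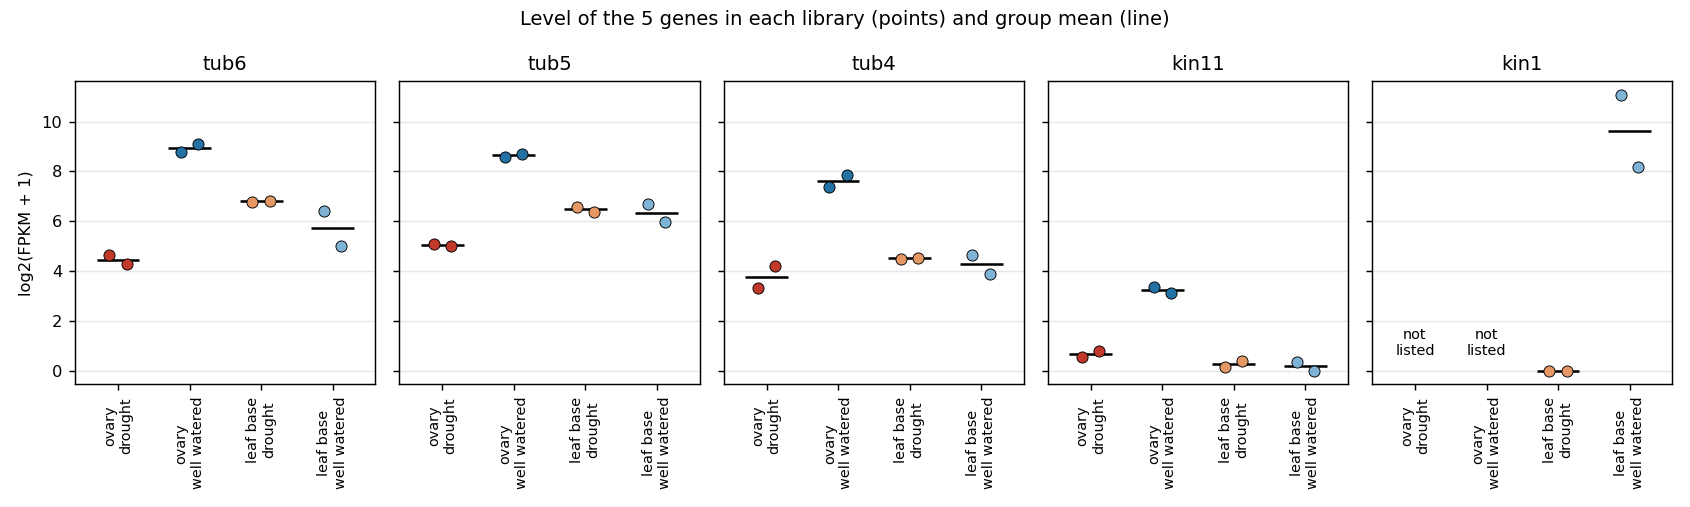
Level of each of the 5 genes as log2(FPKM + 1) (vertical axis) in the 4 groups (horizontal axis), with 1 point per library and a line at the group mean. The droughted ovary points of tub6, tub5, tub4 and kin11 lie below both well-watered points, while kin1 is not listed in the ovary table and is at 0 in both droughted leaf libraries.

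The tubulin members did not show this difference in the leaf base. There tub6 stood at 109 and 112 FPKM under drought, against 84.8 and 31.3 FPKM with water, so both droughted libraries were above both controls. For tub5 the values were 93.9 and 82.6 FPKM under drought and 102.5 and 61.0 FPKM with water, and the groups overlapped. For tub4 they were 21.5 and 22.2 FPKM under drought and 24.3 and 13.6 FPKM with water, and again the groups overlapped. The log2 changes were 1.08 for tub6, 0.25 for tub4 and 0.15 for tub5, with within-group SDs of 0.71, 0.40 and 0.38. Without leaf control 2 these became 0.38, -0.15 and -0.22, so the sign for tub4 and tub5 depends on that library. Within each library the order of tub6 and tub5 differed by condition: tub6 was above tub5 in both droughted leaf libraries, and below it in both well-watered leaf libraries. The well-watered ranges of the 2 genes overlapped.

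The gene listed as kin1 behaved unlike the other 4. It was absent from the ovary table. It was listed at 0 in both droughted leaf libraries, against 2163 and 287 FPKM in the well-watered leaf libraries. The 2 controls differed 7.54-fold, a ratio reached by 2 of the 992 genes with at least 100 FPKM in both leaf controls, this one included. It had the highest mean of the 118 genes listed at 0 in both droughted leaf libraries and above 0 in both controls. Only 23 leaf genes were higher in leaf control 1. Whether a zero here is a missing estimate is not given, so no fold is given for this gene.

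The kinesin identity of GRMZM2G158394 rests on its symbol alone. Of the 12 IDs with a kinesin symbol, 7 carry a krp synonym, which stands for kinesin-related protein in maize, and GRMZM2G158394 does not. A second ID, GRMZM2G129569, has the symbol KIN1 together with krp1. That gene stood at 25.3 and 24.5 FPKM in droughted leaf base, against 31.3 and 30.6 FPKM in well-watered leaf base, and was not called there (limma adjusted p = 0.220, n = 2 per condition). The symbol KIN1 also names a small cold-induced protein in Arabidopsis. Which product GRMZM2G158394 encodes was not tested.

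The make-up of the beta-tubulin transcript pool differed in the ovary. Together tub4, tub5 and tub6 made up 48.5% and 44.7% of the summed beta-tubulin FPKM in droughted ovaries, against 79.3% and 81.5% in well-watered ovaries. The share of tub6 alone was 17.7% and 12.3% in droughted ovaries and 35.3% and 37.4% in well-watered ovaries. In turn tub3 (GRMZM2G108766) made up 26.3% and 34.9% in droughted ovaries, against 10.6% and 9.69% in well-watered ovaries. TUB1 (GRMZM2G164696) made up 19.0% and 15.04% in droughted ovaries, against 7.23% and 6.76% in well-watered ovaries. In all 4 cases the droughted and well-watered libraries did not overlap. The levels of only 20.0% of all ovary genes tested overlapped, so such a separation was common there. These are relative amounts: tub3 and TUB1 were lower in droughted ovaries too. As tub4, tub5 and tub6 were chosen by their drought changes in these libraries, the shift in shares follows in part from that choice. Beta-tubulin genes are alike in sequence, and how fragments that match several of them were assigned is not known, so each share carries that uncertainty. The summed share of the 3 members was 67.4% and 65.8% in droughted leaf base, against 68.0% and 60.6% in well-watered leaf base. Of the summed beta-tubulin FPKM, tub6 alone made up 32.7% and 34.0% in droughted leaf base, against 27.2% and 17.9% in well-watered leaf base. The share of tub5 was 28.2% and 25.01% in droughted leaf base, against 32.9% and 34.9% in well-watered leaf base. Neither of these shares overlapped between the conditions, tub6 having the larger share under drought and tub5 the smaller. The levels of 40.8% of all leaf genes tested overlapped. In the leaf base TUB1 was a minor gene, at no more than 2.08% of the pool in any library.

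**Figure D2:**
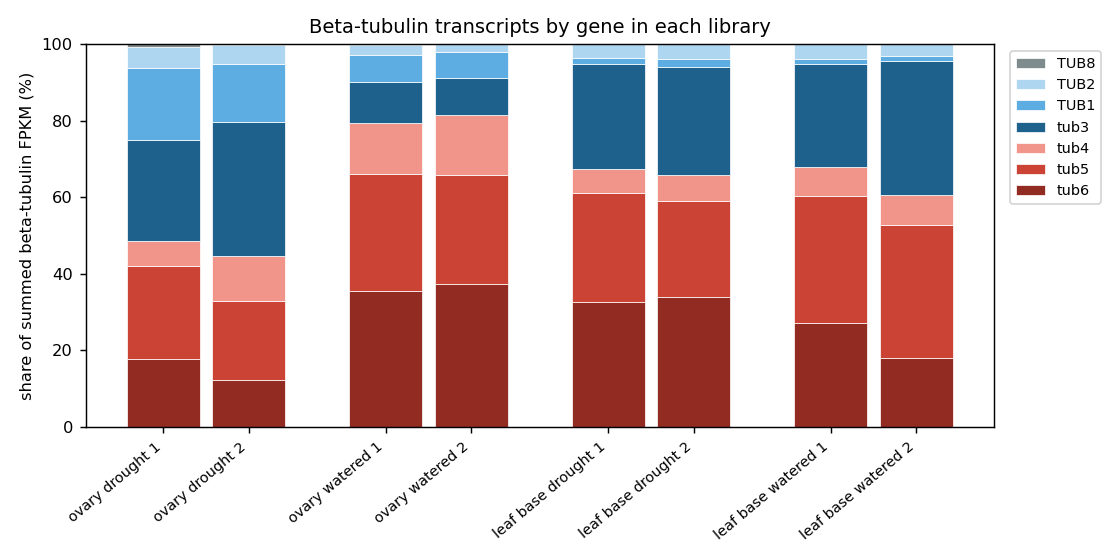
Share of each beta-tubulin gene in the summed beta-tubulin FPKM (vertical axis, percent) in each of the 8 libraries (bars); reds are tub6, tub5 and tub4, blues are tub3, TUB1 and TUB2, and grey is TUB8. The red part is 48.5% and 44.7% in droughted ovaries and 79.3% and 81.5% in well-watered ovaries.

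The whole pool of tubulin transcripts was smaller in droughted ovaries, while the ratio of its alpha to its beta class differed less. Alpha-tubulin transcripts summed to 558 and 603 FPKM in droughted ovaries, against 4642 and 5390 FPKM in well-watered ovaries. Beta-tubulin transcripts summed to 134 and 151 FPKM in droughted ovaries, against 1256 and 1474 FPKM in well-watered ovaries. Gamma-tubulin transcripts summed to 12.76 and 11.05 FPKM in droughted ovaries, against 35.75 and 28.02 FPKM in well-watered ovaries. The gamma class was thus lower by a smaller factor than the alpha and beta classes, and its proportion to them was not kept. The ratio of alpha to beta was 4.15 and 3.99 in droughted ovaries and 3.70 and 3.66 in well-watered ovaries. It was 4.17 and 4.61 in droughted leaf base and 4.01 and 3.55 in well-watered leaf base. Within the alpha class, tua4 (GRMZM2G152466) made up 56.4% and 49.8% in droughted ovaries, against 55.9% and 55.5% in well-watered ovaries, and these overlapped. The share of tua6 (GRMZM2G083243) was 6.07% and 9.35% in droughted ovaries, against 5.67% and 4.78% in well-watered ovaries, without overlap. Such a separation held for the levels of most ovary genes tested.

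The wider list of tubulin and kinesin genes, matched by symbol, holds 25 IDs, of which 24 had a mean of at least 1 FPKM in the ovary and were tested. A call means that limma's moderated test, adjusted by Benjamini-Hochberg over all tested genes of the table, gave a p under 0.05. In the ovary 20 of 24 fell and 1 rose, where 29.5% of the 23770 genes tested fell and 23.6% rose. Those 24 include 4 of the 5 members, and of the 20 that are not members 16 fell and 1 rose. The median log2 change was -2.20 over the list and -1.93 over these 20, against -0.05 over all genes tested. The droughted libraries lay below both controls for 22 of the 24 genes, and for 42.2% of all genes tested. Since the list was known to fall in these data when it was taken up, these counts are a description.

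All 4 alpha-tubulin genes fell. The largest fall was in tua4, which stood at 315 and 300 FPKM in droughted ovaries, against 2594 and 2989 FPKM in well-watered ovaries (log2 change -3.18 ± 0.20, SE, n = 2 per condition, limma adjusted p = 0.000169). GRMZM2G153292, an ID that matches both TUA1 and TUA2 in the reference, stood at 185 and 213 FPKM in droughted ovaries, against 1572 and 1979 FPKM in well-watered ovaries (log2 change -3.15 ± 0.21, limma adjusted p = 0.000199). The other alpha genes, tua5 (GRMZM2G099167) and tua6, had log2 changes of -2.65 and -2.55.

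Among the 4 beta-tubulin genes that are not members, 3 fell, with log2 changes of -1.94 for TUB1, -1.92 for TUB2 (GRMZM2G334899) and -1.65 for tub3. The members' changes of -3.61 to -4.49 lay beyond these 3, and no alpha gene reached them. As the members were chosen by their drought changes, nothing is read from that ranking. TUB8 (GRMZM2G472945), at 0.945 and 0.409 FPKM in droughted ovaries and 1.75 and 1.24 FPKM in well-watered ovaries, was not called (limma adjusted p = 0.0862). Limma did not call tub3 without ovary control 2 (adjusted p = 0.0581, log2 change -1.61). Of the gamma-tubulin genes, TUBG2 (GRMZM2G085970) fell by 2.22 (limma adjusted p = 0.000858), and tubg1 (GRMZM2G073888) fell by 0.72 (limma adjusted p = 0.0379). The call of tubg1 was lost without ovary control 1, drought 1 or drought 2 (limma adjusted p = 0.129, 0.180 and 0.210).

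Of 11 kinesin-named genes tested in the ovary, 8 fell and 1 rose, where 29.5% of all genes tested fell and 23.6% rose. Of these 11, 5 had a leaf mean under 1 FPKM or no leaf entry, kin11 among them. All 5 fell, and their means were between 3.23 and 17.7 times higher in well-watered ovaries. The largest was kin2 (GRMZM2G136838), at 0.760 and 0.460 FPKM in droughted ovaries, against 12.2 and 9.39 FPKM in well-watered ovaries (log2 change -2.87 ± 0.22, SE, n = 2 per condition, limma adjusted p = 0.000311). KIN13 (GRMZM2G034828, log2 change -2.38), KIN8 (GRMZM2G132371, -2.33) and kin4 (GRMZM2G320689, -1.46) were the other 3. Of the 6 kinesin-named genes at 1 FPKM or more in both tissues, 3 fell and 1 rose. KIN6 (GRMZM2G114861) had a log2 change of -2.18, kin9 (GRMZM5G881464) of -1.38 and kin15 (GRMZM2G054418) of -1.07. In droughted ovaries kin11, KIN8 and kin2 (GRMZM2G136838) averaged 0.602, 0.662 and 0.610 FPKM, so they passed the filter of 1 FPKM only through the well-watered libraries. A gene that low in both conditions was not tested, which favours falls among genes of low level, and kin11 was chosen by its drought change. The split by leaf level was made after the values were seen, and the difference between the 2 sets was not tested.

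The exception that rose was KIN5 (GRMZM2G300133), at 12.2 and 11.9 FPKM in droughted ovaries, against 3.78 and 3.44 FPKM in well-watered ovaries (log2 change 1.51 ± 0.17, SE, n = 2 per condition, limma adjusted p = 0.00117). Its synonyms are TD1 and ZmKIN5, with no krp name. In maize TD1 names thick tassel dwarf1, a receptor kinase that restrains the size of inflorescence meristems. With the kinesins limited to the 7 IDs that carry a krp synonym, 6 of them fell and none rose (limma, also 6 and 0 at an unadjusted p under 0.05), and KIN1/krp1 was the 1 not called (log2 change -0.11, limma adjusted p = 0.614). A second gene named kin2 (GRMZM2G180704) was not called either (log2 change -0.41, limma adjusted p = 0.111).

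**Figure D3:**
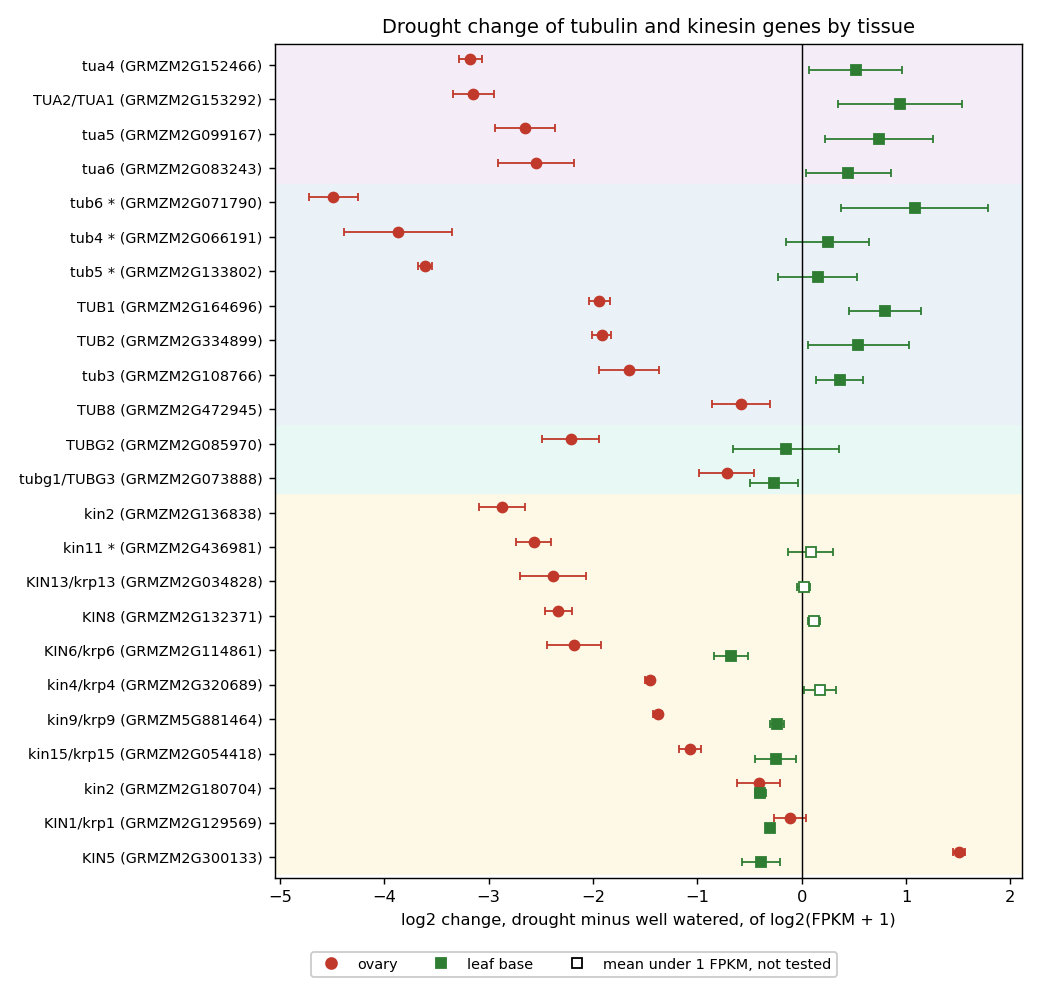
Drought minus well-watered change of log2(FPKM + 1) (horizontal axis) of 24 tubulin and kinesin genes (rows, shaded by class; * marks members) in the ovary (circles) and the leaf base (squares); bars are the within-group SD with n = 2 per group, and open symbols had a mean under 1 FPKM. The ovary changes of tub6, tub4 and tub5 are -4.49, -3.87 and -3.61, and KIN5 is the 1 gene to the right of 0 in the ovary.

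Transcripts of other gene groups differed in the ovary as well, where 29.5% of all genes tested fell and 23.6% rose. Of 10 replication and cell cycle genes tested 7 fell and 1 rose, with pcna2 (GRMZM2G108712), a sliding clamp of DNA polymerase, at 1.09 and 0.986 FPKM in droughted ovaries, against 34.3 and 31.96 FPKM in well-watered ovaries. Of 7 genes of the actin cytoskeleton 5 fell and 2 rose. On the log2 scale act1 (GRMZM2G126010) rose by 1.55, while an actin gene named Actin-7 (GRMZM2G006765) fell by 4.24. Others named Actin-7, GRMZM2G082484 and GRMZM2G067985, had log2 changes of -2.44 and -0.81. This list was matched by symbol and does not hold the gene named actin (GRMZM2G126190). The photosynthesis markers, 12 of 12 listed, summed to 150 and 139 FPKM in droughted ovaries, against 596 and 1062 FPKM in well-watered ovaries, with lhcb3 at 0 in both droughted libraries. The KNOX and leaf patterning markers, 13 of 13 listed, summed to 223 and 218 FPKM in droughted ovaries, against 123 and 104 FPKM in well-watered ovaries. The floral markers, 7 of 7 listed, summed to 572 and 721 FPKM in droughted ovaries and 891 and 783 FPKM in well-watered ovaries. The part of tissue make-up in the tubulin and kinesin differences was not tested, and in such bulk samples fewer cells of a type and less RNA per cell cannot be told apart.

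Drought gave no tubulin call in the leaf base. Of the 9 tested that are not members, limma called none, where 0.906% of the 22418 genes tested fell and 2.35% rose. At an unadjusted p under 0.05, 1 of these 9 was higher and none lower, against 10.8% higher and 11.6% lower over all genes tested. Of 6 kinesin-named genes other than kin1, limma called none, and 3 were lower and none higher at an unadjusted p under 0.05. The 1 list gene counted as falling in the leaf base was kin1, whose own leaf values chose it, so nothing is read from that count. With either droughted leaf library left out, limma called none of these genes, and no gene at all in the table. All 10 alpha- and beta-tubulin genes tested had a positive log2 change, with a median of 0.53, against -0.06 over all genes tested. Of the 9 tubulin genes that are not members, 6 had both droughted libraries above both controls, 1 had them below and 2 overlapped. Over all leaf genes tested 23.5% lay above both controls. The 6 kinesin-named genes all had both droughted libraries below both controls, which held for 35.7% of all leaf genes tested. KIN6, with the largest change of the 6, stood at 3.23 and 2.68 FPKM in droughted leaf base, against 5.91 and 4.77 FPKM in well-watered leaf base (log2 change -0.68 ± 0.17, SE of the fit, 2 libraries per condition, limma adjusted p = 0.147).

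The size of the leaf tubulin changes depended on 1 control library. Leaf control 2 was the lowest of the 4 leaf libraries for all 10 alpha- and beta-tubulin genes, against 35.1% of all leaf genes tested. Its levels were between 36.9% (tub6) and 72.7% (tub3) of those in leaf control 1. Droughted leaf base averaged between 86.1% (tub5) and 149% (TUB1) of leaf control 1. Leaf control 2 was also the lowest for 4 of 5 replication and cell cycle genes and for none of the 7 kinesin-named genes. With leaf control 1 left out, limma called 3 of the 7 alpha- and beta-tubulin genes that are not members as higher under drought, where 6.73% of all genes rose and 2.14% fell in that fit. These were tua5, TUA1/TUA2 and TUB2, at limma adjusted p = 0.0421, 0.0402 and 0.0431. In such a fit the lone control library is assumed to vary like the droughted ones. With leaf control 2 left out it called none, the median of the 10 genes was 0.11, and 2 of them, tub4 and tub5, turned negative.

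**Figure D4:**
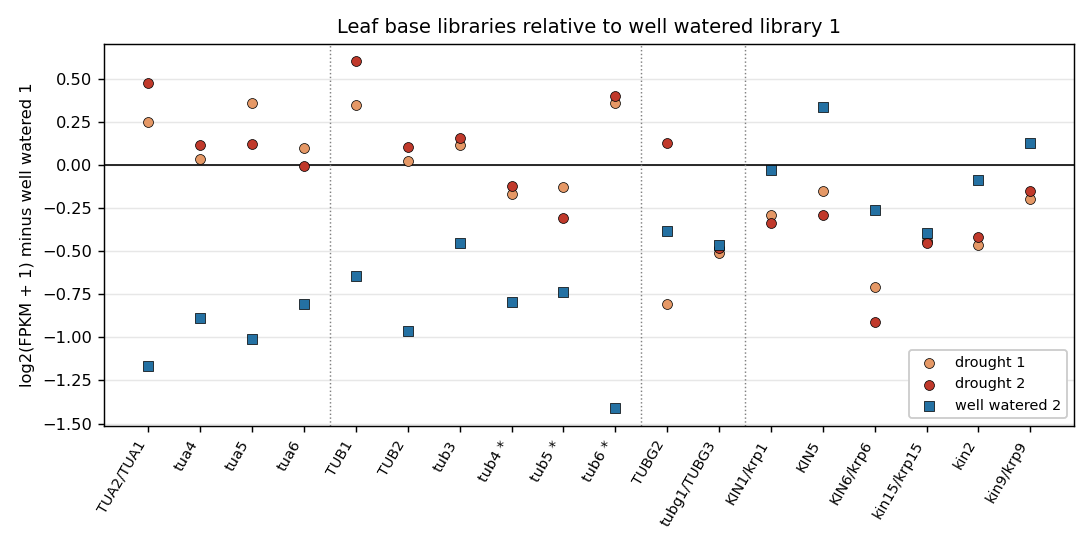
Difference in log2(FPKM + 1) from leaf control 1 (vertical axis) of the other 3 leaf base libraries (circles, drought; squares, leaf control 2) for 18 tubulin and kinesin genes tested in the leaf (horizontal axis; dotted lines part alpha, beta, gamma and kinesin). Leaf control 2 lies below all other leaf libraries for the 10 alpha- and beta-tubulin genes, at 36.9% to 72.7% of leaf control 1.

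The drought change in the ovary minus that in the leaf base was tested over all 8 libraries for genes at 1 FPKM or more in both tables. Of 18 tubulin and kinesin genes, 14 had a more negative change in the ovary and 1 a more positive one, where 24.7% and 23.0% of the 20252 genes tested did so. Of the 15 that are not members the numbers were 11 and 1. The largest were TUA1/TUA2 (difference -4.09 ± 0.51, SE, limma adjusted p = 0.000893), tua4 (-3.69 ± 0.40, limma adjusted p = 0.000542) and tua5 (-3.40 ± 0.46, limma adjusted p = 0.00132). KIN5 was the 1 on the positive side (1.89 ± 0.23, limma adjusted p = 0.000793). The members' differences, given without a test, were -5.58 for tub6, -4.12 for tub4 and -3.76 for tub5. A scaling that differs between the 2 tables cancels in this difference, but not when levels of the tissues are set side by side.

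With that limit, all 3 tubulin members were highest in well-watered ovaries. The mean of tub6 was 497 FPKM there and 58.0 FPKM in well-watered leaf base. The mean of tub5 was 401 FPKM in well-watered ovaries and 81.8 FPKM in well-watered leaf base. The mean of tub4 was 200 FPKM in well-watered ovaries and 18.9 FPKM in well-watered leaf base. In droughted ovaries tub6 and tub5 were below every leaf library, while the tub4 values overlapped those of the leaf base. KIN5, by contrast, had 3.78 and 3.44 FPKM in well-watered ovaries, below its lowest leaf value of 10.01 FPKM.

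The genes with the most similar pattern were found by the root mean square difference of log2(FPKM + 1) over the 8 libraries, after centring each tissue, among 1871 named genes at 1 FPKM or more in both tables. Nearest to tub5 were BM1 (GRMZM5G844562), a cinnamyl alcohol dehydrogenase of lignin synthesis, at a difference of 0.12, then b3gat3 (GRMZM2G012874, 0.12) and pdi2 (GRMZM2G163421, 0.17), a protein disulfide isomerase. Nearest to tub4 were zmCL2-1 (GRMZM2G005552, 0.17), sbip1b (GRMZM2G060922, 0.18) and b3gat3 (0.24). Nearest to tub6 were AD1 (GRMZM2G167438, 0.23), bronze (GRMZM2G165390, 0.26), which makes anthocyanin glucosides, and Myb20 (GRMZM2G150841, 0.27). The members were less alike than that: tub4 and tub5 differed by 0.28, tub5 and tub6 by 0.49, and tub4 and tub6 by 0.51. For kin11, whose leaf values are near 0 so that the ovary carries the measure, the nearest were por1 (GRMZM2G155021, 0.13), a gene named actin (GRMZM2G126190, 0.13) and ARF12 (GRMZM2G437460, 0.14). The closest of these, BM1, stood at 3.18 and 2.45 FPKM in droughted ovaries, against 46.7 and 54.7 FPKM in well-watered ovaries.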

How the data were processed

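The authors deposited FPKM, in 1 table per tissue with 1 column per library. The tools named in the submitters' processing notes are Cufflinks 1.0.2, TopHat 1.2.0 and CASAVA 1.8. Genome build, annotation, strand handling and the treatment of fragments that match several genes are not stated in the labels or tables, and values of closely similar tubulin genes may share fragments. Read counts could not be recovered, since in pairs of replicates at most 2.44% of low values fell on 1 common ratio. Symbols came from the synonyms of RefSeq's annotation of Zm-B73-REFERENCE-NAM-5.0, which matched 16218 of 26380 ovary IDs and 16109 of 25873 leaf IDs; tua3 and tub7 were not analysed here.

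From the FPKM, log2(FPKM + 1) was fitted for genes averaging 1 FPKM or more per tissue with limma 3.58.1 in R 4.3.3 (lmFit, eBayes with trend), and the difference between tissues over all 8 libraries. Values after ± are SE of the fit, or SD where stated. The fits were tested on simulated data. Members and lists were chosen with earlier results of these data known. The text names the 5 members, the 5 largest falling and rising called list genes per tissue, the 3 largest tissue differences each way and the 3 nearest named genes per member; TUB8, both kin2, KIN1/krp1 and the genes of other lists were added after their values were seen. The pollen marker list was not read, since only plt2, mgs1 and mgs2 of its 7 IDs were listed. In the ovary these 3 summed to 44.3 and 37.3 FPKM under drought and 598 and 1436 FPKM with water, with medians between 0.247 and 2.13 FPKM. The 1 listed in the leaf base, plt2, stood between 331 and 1330 FPKM there. Protein similarity and promoter motifs, also planned, were not analysed here. Alternatives were other pseudocounts, filters, scalings, no trend, a replicate block and each library left out.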

Additional observations from a re-analysis of the deposited data

Results flagged for a closer look

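Of 15 tubulin and kinesin genes tested that are not members, 12 had a drought change in the ovary that differed from that in the leaf base. The test was limma's, of the difference itself (Benjamini-Hochberg adjusted p under 0.05, 2 libraries per group). Over all 20252 genes tested, 24.7% had a more negative change in the ovary and 23.0% a more positive one, so such differences were common. The ovary change minus the leaf change was -4.09 for TUA1/TUA2, -3.69 for tua4, -3.4 for tua5 and -2.99 for tua6 on the log2 scale. Among beta- and gamma-tubulin genes it was -2.74 for TUB1, -2.46 for TUB2, -2.02 for tub3 and -2.06 for TUBG2. Among kinesin-named genes it was -1.5 for KIN6, -1.14 for kin9, -0.822 for kin15 and 1.89 for KIN5. Of these, kin15 was no longer called without ovary control 1, ovary drought 1, leaf control 2, leaf drought 1 or leaf drought 2 (limma adjusted p between 0.0511 and 0.0689).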

How the results depend on the processing

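In the ovary 20 genes fell and 1 rose with the replicate number as a block too, the counts in the leaf base stayed at 1 and 0, and those of the tissue difference at 14 and 1; the block changed no call count of the list. Deviations of same-numbered libraries correlated at 0.112 (ovary) and -0.175 (leaf base), so the numbers are not taken to pair the samples, and the crossed pairing, added after seeing the data, gave 1 and 0 in the leaf base. With 1 library left out 19 fell and 1 rose in the ovary each time, and the counts were 0 to 1 fell and 0 to 4 rose in the leaf base (members included), and 13 to 14 more negative and 1 more positive in the tissue difference. Of the 20 ovary falls, 18 were called under every alternative in which they were tested, tub3 and tubg1 being the others. These 18, like the ovary counts above, include tub4, tub5, tub6 and kin11. As those were chosen by their drought changes, nothing is read from their calls, and 16 of the 20 falls are of genes that are not members. With kinesins limited to krp synonyms, chosen after seeing the data, 0 rose in the ovary, 0 fell in the leaf base and 0 were more positive in the tissue difference. Over left-out libraries the ovary changes ranged from -4.66 to -4.32 for tub6, -4.33 to -3.41 for tub4, -3.67 to -3.55 for tub5 and -2.69 to -2.45 for kin11. The leaf changes ranged from 0.38 to 1.79 for tub6, -0.15 to 0.65 for tub4, -0.22 to 0.52 for tub5 and -0.10 to 0.27 for kin11. With 0.1 FPKM added in place of 1, kin11 changed by -3.64 in the ovary and 0.56 in the leaf base, as the construction of the scale implies at levels near 0. Quantile normalization gave -3.53 for tub5 in the ovary and moved the median of all ovary genes to 0.06, against -0.05 without it, and that of the tissue difference to 0.13, against 0.02; the cause was not tested. Over all leaf genes the block gave 121 that fell and 230 that rose, against 203 and 527 without it. Left-out libraries gave 0 to 479 and 0 to 1509 in the leaf base and 3543 to 4804 and 2257 to 3791 in the ovary, against 7004 and 5614 with all libraries. The identity minimum for protein similarity was not run. For kin1, listed at 0 in both droughted leaf libraries, no change is given, since the added constant would set it. Without read counts the depth behind each value is unknown.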
